A study of Rattus norvegicus with 14 samples.

Results

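The genes described are 10 components of the epithelial tight junction: the claudins Cldn1, Cldn2, Cldn3, Cldn4, Cldn7, Cldn15 and Cldn23, occludin (Ocln), the junctional adhesion molecule JAM-A (F11r) and the scaffold protein ZO-1 (Tjp1). They were chosen by gene symbol, and every non-control probe on the array with that gene name was used. All 10 genes were on the array, with 12 probes (a pair each for Cldn2 and Tjp1) and 39 of the 58717 non-control spots, among 30367 probes and 26276 gene names in all.

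The comparison was between male Wistar rats fed for 15 days a normal-protein diet (NPD, 14% of energy from protein) or an isocaloric high-protein diet (HPD, 55%), both after the same standard diet. RNA came from colonocytes, the epithelial cells of the colon, which were detached with EDTA, and each rat's RNA was hybridised to its own Agilent 1-colour array. There were 7 NPD and 7 HPD arrays, after the authors had removed an outlier from each group, and the separate rats make the arrays biological replicates. The cells were not sorted, so in these bulk samples fewer cells of a type and less RNA per cell cannot be told apart.

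Tight junctions seal the space between neighbouring epithelial cells near their apical side. Claudins form the strands and set which ions pass: some seal the paracellular path, while others form pores through it. Occludin and JAM-A lie in the same membrane region, and ZO-1 ties the strands to actin.

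The probes are 60 bases long, and their place decides which part of a transcript was read. The sequences of 3 claudin probes are shown as examples. The Cldn2 sequence is the probe that gave the smaller diet difference of that gene's pair, the Cldn7 sequence is the single probe whose genome span exceeds its length, and in the Cldn15 sequence the capitals mark a stop codon at the end of the frame.
Cldn2: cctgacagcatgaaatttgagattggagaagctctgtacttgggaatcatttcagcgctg
Cldn7: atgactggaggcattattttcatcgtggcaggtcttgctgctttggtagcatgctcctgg
Cldn15: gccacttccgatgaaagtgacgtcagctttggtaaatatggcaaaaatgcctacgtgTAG

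The printed Cldn2 probe starts at base 804 of its transcript and lies on the rat build rn4 at chrX:127546789-127546848, plus strand. The other Cldn2 probe starts at base 2320, at chrX:127548305-127548364, which is 1516 bases further along both the transcript and the genome. The Cldn7 probe starts at base 662 and spans 171 bases of the genome, chr10:56812476-56812646. The Cldn15 probe, from base 624, lies at chr12:20844124-20844183. The F11r probe starts at base 1184, at chr13:87392812-87392871, and the Ocln probe at base 4053, at chr2:31317108-31317167 on the minus strand. Cldn1 was read from base 3146 (chr11:76488733-76488792), Cldn4 from base 1739 (chr12:22817873-22817932) and Cldn23 from base 1645 (chr16:60110806-60110865), all on the plus strand, while the Cldn3 probe, from base 1412, lies on a part of chromosome 12 that rn4 had not placed. The Tjp1 probes start at bases 6108 and 4973, at chr1:119685220-119685279 and chr1:119689604-119689663 on the minus strand.

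Signals are given as log2 of the background-subtracted brightness relative to the array's median probe, and each difference is HPD minus NPD on that scale. A change was called at a Benjamini-Hochberg q-value below 0.1 over all 30367 probes (limma). Each array had 18839 to 20976 probes well above background, and arrays correlated at 0.970 to 0.992 over probes. The labels give no batch, but the array names hold 2 run names, called slides 1 and 2 here. There were 4 NPD and 3 HPD arrays on slide 1 and 3 NPD and 4 HPD arrays on slide 2. A slide and a scan run cannot be told apart from these names. When diet and slide were both fitted, slide passed the threshold for 40.1% of probes. The median spot signal was 114 to 179 on the NPD arrays and 89.7 to 129 on the HPD arrays, and the median difference over all probes was 0.11. HPD replicate 1 stood apart: without it the number of called probes was 151 in place of 17 (0.056%), so values without this array are given for the genes whose difference it moved most.

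None of the 10 genes passed the test. The background was low too, with 0.0533% of genes called, and 0.0913% with slide as a block, which also called none of the 10. At an unadjusted p below 0.05, 2 of the 10 were lower in HPD rats, Cldn2 and F11r, and none was higher, against 11.5% of all genes in either direction, 5.48% lower and 6.05% higher. By the exact two-sided permutation test the same 2 genes had p below 0.05. The diets overlapped for all 12 probes, as they did for nearly every probe on the array, since 0.274% did not overlap. By their brightest probe 6 genes were higher and 4 lower, with a median difference of 0.02, against 65% of all genes higher and a median of 0.11.

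**Figure D1:**
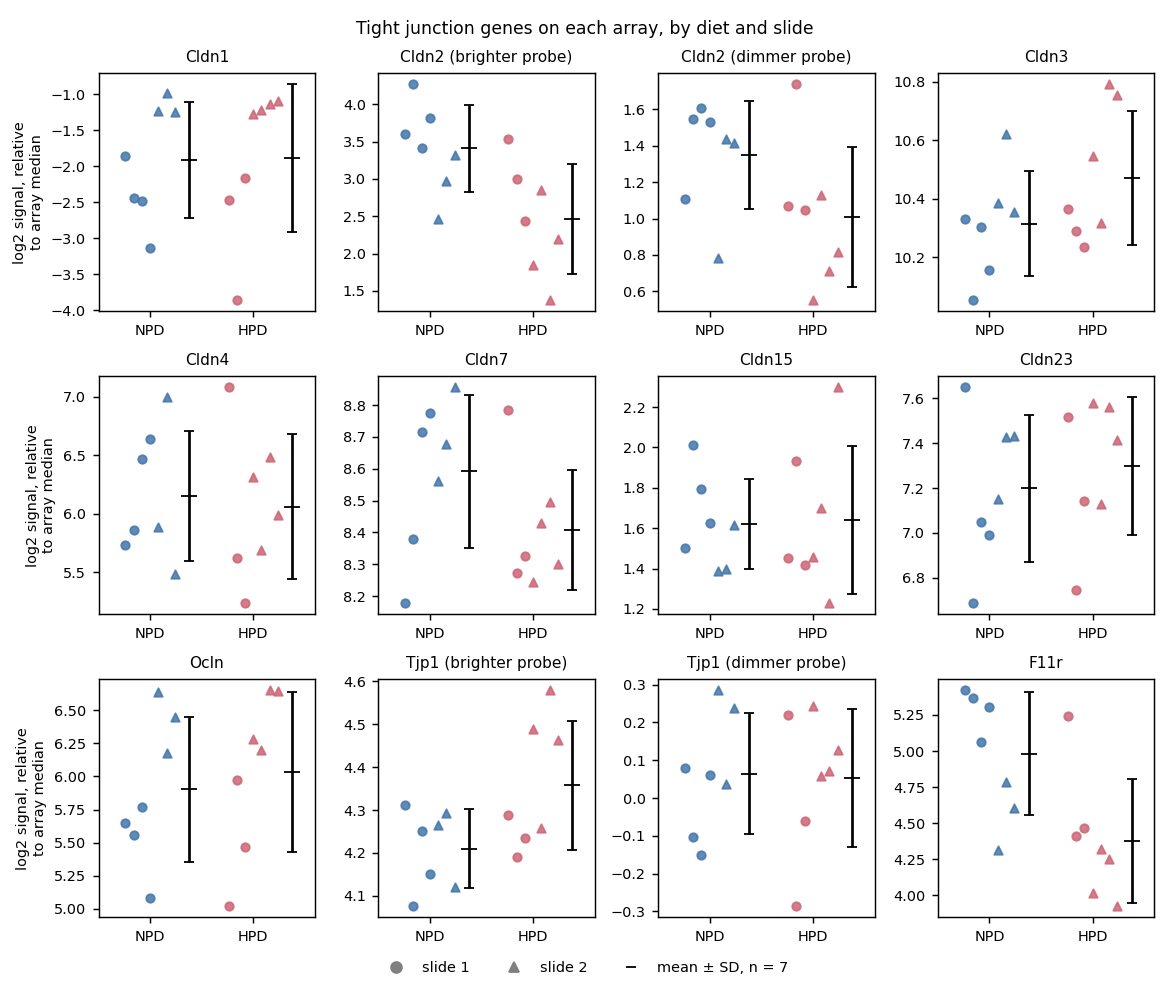
Log2 signal relative to the array median (vertical axis, a scale of its own in each panel) for the 12 probes in NPD and HPD rats. Each point is an array, circles slide 1 and triangles slide 2, and black marks are the mean ± SD of 7 arrays; the diets overlap in every panel, and Cldn1 and Ocln split by slide.

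Cldn2 encodes a claudin that forms a pore for cations and water. Its probe at base 2320 had the lowest difference among the members, and it was well above background on all 14 arrays. Its log2 signal ran from 2.46 to 4.27 in the NPD rats, with a median of 3.42, and from 1.37 to 3.53 in the HPD rats, with a median of 2.44. Of the HPD arrays 4 lay below every NPD array, and 6 lay below the NPD mean. The group means were 3.41 ± 0.58 and 2.46 ± 0.73 (SD, n = 7 each), a difference of -0.95 with a 95% confidence interval from -1.64 to -0.25, or 1.93-fold lower. The difference did not pass the test (limma q = 0.417), with an exact permutation p of 0.021, and 0.0106 when arrays were regrouped within slides alone. It was -0.79 on slide 1 and -0.85 on slide 2, and -1.13 without HPD replicate 1.

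The Cldn2 probe at base 804 gave a smaller difference. Its signal was 1.35 ± 0.30 in the NPD rats and 1.01 ± 0.38 in the HPD rats (SD, n = 7 each). The difference was -0.34, with an interval from -0.73 to 0.05 and q = 0.464. The difference of the 2 probes' effects was -0.61 (exact permutation p = 0.0431, and 0.0862 adjusted for the 2 probe pairs compared, Cldn2 and Tjp1). Both Cldn2 probes were lower in the HPD group, and the estimated size differed between them. The probe at base 2320 had a single spot per array, while the other had 2.

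F11r encodes JAM-A, an adhesion protein of the immunoglobulin superfamily. Its signal ran from 4.31 to 5.42 in the NPD rats, with a median of 5.06, and from 3.93 to 5.25 in the HPD rats, with a median of 4.32. The highest HPD value belonged to replicate 1, and the other 6 HPD arrays lay below the NPD mean. The means were 4.98 ± 0.42 and 4.38 ± 0.43 (SD, n = 7 each). The difference was -0.60, with an interval from -1.07 to -0.14, or 1.52-fold lower, and it did not pass the test (limma q = 0.417). The exact permutation p was 0.0239, and 0.00408 within slides, with differences of -0.58 on slide 1 and -0.44 on slide 2. Without HPD replicate 1 the difference was -0.75.

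**Figure D2:**
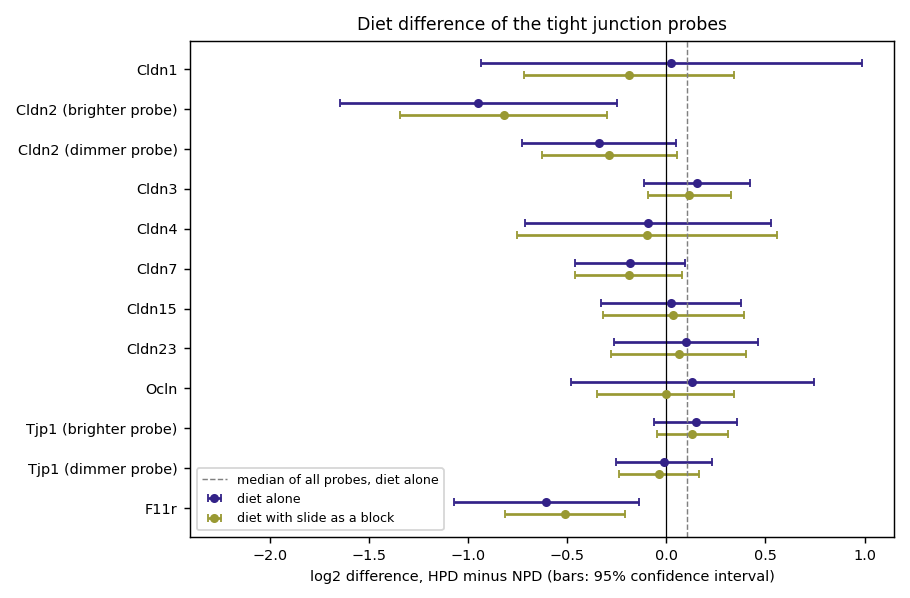
Log2 difference HPD minus NPD (horizontal axis) for each of the 12 probes, with 95% confidence intervals, from the fit of diet alone and from the fit with slide as a block; the dashed line is the median of all probes. The intervals of F11r and of the brighter Cldn2 probe lie below 0 in both fits, and the other 10 probes' intervals include 0.

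Both genes were also lower on slide 2 than on slide 1, by -0.89 for Cldn2 (q = 0.0132) and -0.65 for F11r (q = 0.00443). With slide as a block the diet differences were -0.82 for Cldn2 and -0.51 for F11r, both with q = 0.207. The pair was called in 3 settings. Normexp background correction gave q = 0.0893 for each, but it called 16.9% of all genes, so 2 of 10 members is close to the background. Fitting slide as a block to the deposited table gave -0.48 for Cldn2 (q = 0.0682) and -0.61 for F11r (q = 0.0505), with 10.5% of its rows called. Slide as a block without HPD replicate 1 gave -0.94 for Cldn2 (q = 0.0709) and -0.62 for F11r (q = 0.0437), with 5.48% of genes called. The second and the third of these settings were chosen after the data were seen.

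**Figure D3:**
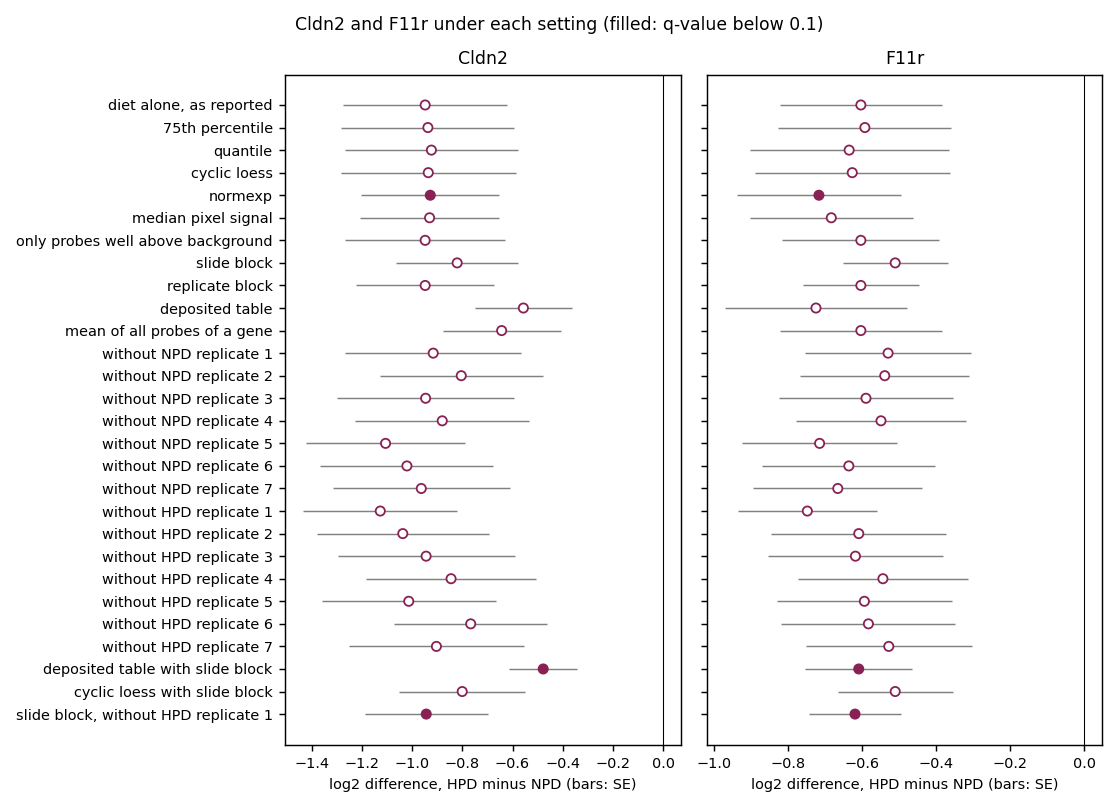
Log2 difference HPD minus NPD (horizontal axis) of Cldn2 and F11r under each of 28 settings, with standard errors; filled points have a q-value below 0.1. Both genes are below 0 in all 28 settings and are called in 3.

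The claudins known mainly for sealing gave no difference that passed the test. Cldn3 had a signal of 10.31 ± 0.18 in the NPD rats and 10.47 ± 0.23 in the HPD rats (SD, n = 7 each). Its difference was 0.16, with an interval from -0.11 to 0.42. Cldn4 ranged widely in both diets, from 5.49 to 7.00 in the NPD rats and from 5.24 to 7.08 in the HPD rats. Its difference of -0.09 had an interval from -0.71 to 0.53, so a change of the size seen for F11r could not be told from none. Without HPD replicate 1 the difference of Cldn4 was -0.26.

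Cldn7 was 8.59 ± 0.24 in the NPD rats and 8.41 ± 0.19 in the HPD rats (SD, n = 7 each). Of the HPD arrays 6 lay below the NPD mean, and replicate 1 was again the highest of them. The difference was -0.18 (interval -0.46 to 0.09; q = 0.515), with -0.05 on slide 1 and -0.33 on slide 2, and -0.25 without HPD replicate 1. It was negative in all 28 settings and called in none.

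Cldn1 was dim. It was well above background on 5 NPD and 4 HPD arrays, and its 10 spots had a pooled SD of 0.37 within an array. Its signal was -1.91 ± 0.81 in the NPD rats and -1.89 ± 1.03 in the HPD rats (SD, n = 7 each). All 7 arrays of slide 2 lay between -1.27 and -0.98, above all 7 of slide 1, and the slide difference was 1.49 (q = 0.00123). The diet difference was 0.03, with an interval from -0.93 to 0.98, and -0.19 with slide as a block, with an interval from -0.72 to 0.34. With diet as the only term and without HPD replicate 1 it was 0.12. Its direction is therefore not settled.

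Cldn15, which forms a cation pore in the intestine, was 1.62 ± 0.22 and 1.64 ± 0.37 in the NPD and HPD rats (SD, n = 7 each), a difference of 0.02 (interval -0.33 to 0.37). Cldn23 was 7.20 ± 0.33 and 7.30 ± 0.31, a difference of 0.10 (interval -0.26 to 0.46). Without HPD replicate 1 the differences were 0.053 for Cldn15 and 0.063 for Cldn23. These intervals leave room for changes of about the size of the SD between rats.

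Occludin, a membrane protein that spans the bilayer repeatedly, split by slide as Cldn1 did. Its signal ran from 5.02 to 5.97 on slide 1 and from 6.18 to 6.65 on slide 2, a slide difference of 0.93 (q = 0.00153). The diet difference was 0.13 (interval -0.48 to 0.74) and with slide as a block it was -0.0021 (interval -0.35 to 0.34). With diet as the only term and without HPD replicate 1 it was 0.30. The standard error of the diet difference was 0.29 without slide in the fit and 0.16 with it.

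Tjp1, the scaffold, varied least among rats of a diet. Its probe at base 6108 was 4.21 ± 0.09 in the NPD rats and 4.36 ± 0.15 in the HPD rats (SD, n = 7 each), and 6 of 7 HPD arrays lay above the NPD mean. The difference was 0.15 (interval -0.06 to 0.36; q = 0.515; exact permutation p = 0.0501). The probe at base 4973 gave -0.01 (interval -0.25 to 0.23). The probes' effects differed by 0.16 (exact permutation p = 0.101, also after adjustment for the 2 pairs).

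**Figure D4:**
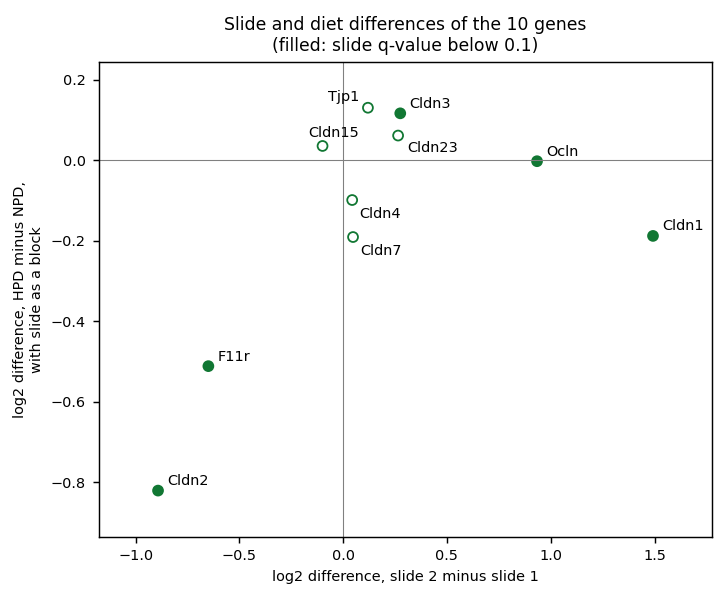
Difference between the slides (horizontal axis, slide 2 minus slide 1) against the diet difference with slide as a block (vertical axis), both on the log2 scale, for the brightest probe of each gene. Filled points, Cldn1, Cldn2, Cldn3, Ocln and F11r, have a slide q-value below 0.1.

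Slide passed the threshold for 5 of the 10 genes, against 40.9% of all genes. The direction of the slide difference was not shared: Cldn1, Cldn3 and Ocln were higher on slide 2, while Cldn2 and F11r were lower.

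Of the 22 claudins on the array, 11 were detected above background on all 7 arrays of a diet, and 5 (Cldn5, Cldn14, Cldn16, Cldn18 and Cldn24) were not well above background on any array. None of the 15 claudins outside the 10 genes was called. In the HPD group 14 of them were higher, with a median difference of 0.25, against 65% of all genes and a median of 0.11. The 5 that were above background on all 7 arrays of a diet had a median of 0.24, against 0.06 for all such genes. In the decile of lowest signal, the median difference over all probes was 0.24. The part of signal level in these differences was not tested. Cldn8, Cldn9, Cldn12 and Cldn17 were well above background on all 14 arrays, with differences of 0.04, 0.20, 0.24 and 0.27.

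At an unadjusted p below 0.05 were Cldn10 and Cldn11. Cldn10, a channel-forming claudin, was well above background on 6 NPD and 7 HPD arrays and differed by 0.46 (q = 0.425). Cldn11, known from myelin and testis, was well above background on only 1 NPD and 3 HPD arrays, so its difference rests mostly on signals near background. That difference was 1.22 (q = 0.417), and without HPD replicate 1 it was 1.37 and was called (q = 0.0976), with 0.499% of genes called. Cldn11 was also called in the 3 settings that called Cldn2 and F11r. Its difference was 0.33 with normexp, where 16.9% of all genes were called, and 0.35 in the deposited table with slide (10.5% of rows). With slide and without HPD replicate 1 it was 1.23 (5.48% of genes called), so its size depends on the processing. The remaining claudins were dim: Cldn6 was well above background on 3 of 14 arrays, Cldn19 on 6, and Cldn20 and Cldn22 on 1 each.

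The other lists of junction genes had no called gene either. Of 10 other membrane proteins 8 were higher and 2 lower, with a median of 0.04 and none at an unadjusted p below 0.05. Of 21 other scaffold and polarity proteins 11 were higher and 10 lower, with a median of 0.02 and again none. Among 20 regulators 12 were higher and 8 lower, and 4 had an unadjusted p below 0.05. Of these, 3 were lower in the HPD group: Myl12b, a myosin regulatory light chain (-0.52), Rab13, a GTPase of vesicle traffic to junctions (-0.43), and Rac1, a GTPase that organises actin (-0.28). These 3 were called in the same 3 settings as Cldn2 and F11r. Those settings called 16.9% of all genes (normexp), 10.5% of rows (deposited table with slide) and 5.48% of all genes (slide without HPD replicate 1). The last 2 of them were chosen after the data were seen. The other was Snai2, which was not well above background on any array, so no fold is given. Over all 76 tight junction genes measured, 8 (10.5%) had an unadjusted p below 0.05, against 11.5% of all genes.

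Adherens junction and desmosome genes, a list of 17, had 9 higher and 8 lower members and a median of 0.04. At an unadjusted p below 0.05, 3 of the 17 were lower and none was higher, against 5.48% of all genes lower and 6.05% higher. They were the desmosomal proteins Pkp3 (-0.37) and Ppl (-0.61, well above background on 5 NPD arrays and 1 HPD array) and the adhesion protein Nectin2 (-0.26).

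**Figure D5:**
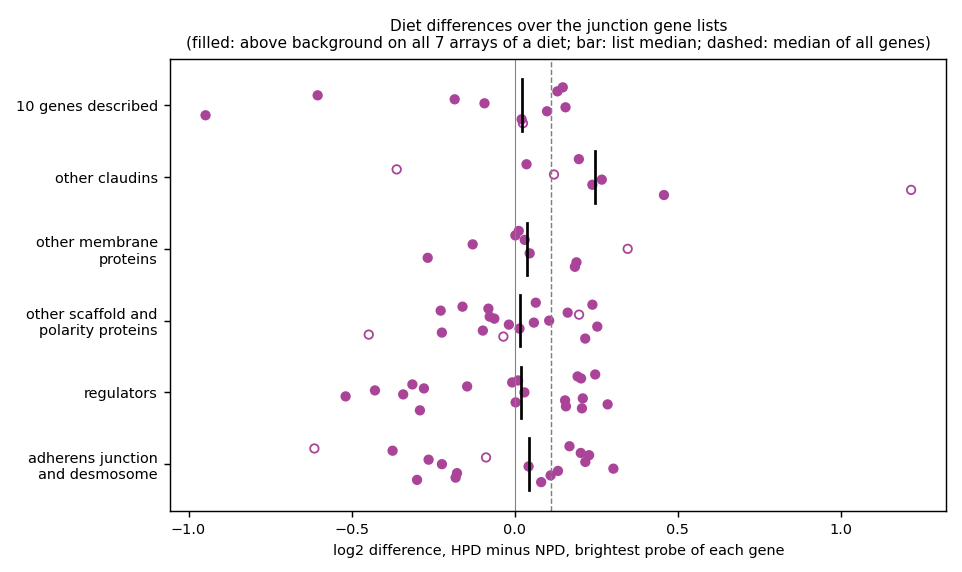
Log2 difference HPD minus NPD (horizontal axis) of the brightest probe of each gene, by list (vertical axis; height within a list has no meaning). The 11 genes not well above background on any array of a diet are not drawn but count in the list medians (bars); filled points are well above background on all 7 arrays of a diet, and the other claudins lie mostly right of the median of all genes (dashed line).

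The labelled cell type was checked against its markers. All 8 epithelial markers were above background throughout. Markers of other cell types were detected too: 5 of 8 endothelial, 4 of 8 immune, 6 of 10 stromal and muscle, and 3 of 7 glial and neuronal markers were above background on all 7 arrays of a diet. Among endothelial markers Pecam1, Cdh5, Esam and Vwf were above background on all 14 arrays and Kdr on 13, while Cldn5 and Tie1 were on none and Tek on 1. Levels of different probes cannot be compared, so the share of each cell type is not known from these arrays.

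The summed signal of each list, in multiples of the array median, overlapped between the diets. So did nearly every single probe, since 0.274% did not overlap. The brightest probes weigh most in such a sum. Epithelial markers summed to 5602 to 7075 in the NPD rats and 5346 to 7973 in the HPD rats. In the same order, the sums were 15.3 to 18.8 and 15.6 to 18.4 for endothelial markers, 12.0 to 28.3 and 12.6 to 15.7 for immune markers, 12.5 to 27.2 and 11.4 to 20.7 for stromal and muscle markers, and 2.14 to 2.79 and 2.13 to 3.67 for glial and neuronal markers.

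None of these markers was called. At an unadjusted p below 0.05 were 1 of 8 epithelial markers, the keratin Krt19 (-0.36), 1 of 8 endothelial markers, the adhesion molecule Esam (-0.33), and none of 8 immune markers. The same held for 3 of 10 stromal and muscle markers, against 11.5% of all genes. They were the collagen Col1a1 (0.35), the smooth muscle myosin Myh11 (-0.48) and the collagen Col3a1, which was well above background on no NPD array and 1 HPD array, so no fold is given. Of the 7 glial and neuronal markers, the glial factor Sox10 (0.44) and Cldn11, described above, were at an unadjusted p below 0.05.

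Along the crypt, the 7 surface colonocyte markers were all higher in the HPD group, with a median difference of 0.19. Over all genes 65% were higher, with a median of 0.11. The list median is the value of a marker well above background on only 1 NPD and 3 HPD arrays. The sums were 5037 to 7059 in the NPD rats and 5430 to 9244 in the HPD rats. Of the surface markers Guca2a had an unadjusted p below 0.05 (0.31). Of the 6 crypt base and cycling markers measured 4 were higher and 2 lower, with a median of 0.09 and sums of 87.6 to 119 and 73.3 to 143. The markers of dividing cells did not share a direction: Top2a was at -0.68, the only marker of this list at an unadjusted p below 0.05, while Cdk1 was at 0.14 and Ccnb1 at 0.04. The crypt markers were not called either, and the part of any of these cell types in the differences of Cldn2 and F11r was not tested.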

How the data were processed

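RNA of colonocytes was measured on 1-colour Agilent arrays, 1 per rat. The authors deposited each array's scanner file, made with Agilent Feature Extraction 10.7.3.1, whose background-subtracted signal is a linear intensity. They also deposited a table of log2 values, centred by array and averaged by gene name, with column medians from -1.29 to -1.10, so the centring statistic and the signal column behind it stay unknown. Here log2 of the intensity was averaged over the spots of a probe without outlier spots (11 spots of the member probes were left out, and no member value was missing), then centred on each array's median. The fit used limma 3.58.1 (R 4.3.3) on all 14 arrays with diet as the only term, and p-values were adjusted by Benjamini-Hochberg over 30367 probes without a filter on signal. The brightest probe stood for a gene in counts.

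For single probes, an exact two-sided permutation test ran over 1716 splits (smallest possible p 0.000583) and over 1225 regroupings within slides. The slides are the 2 run names within the array names, since the labels give no batch. A probe was well above background where at least 50% of its spots had that flag. Groups and replicate numbers came from the sample titles. Named were every member, every claudin, and listed genes with an unadjusted p below 0.05, up to 8 per list. The members and lists were chosen with earlier results of these data known. The genes Cldn25, Igsf5, Patj, Amotl1 and Mki67 were not found by symbol. The fit was tested on simulated data. Alternatives were another centring (75th percentile), quantile, cyclic loess, normexp (offset 50), the median pixel signal, bright probes alone, slide or replicate number as a block, the deposited table, a stricter q-value of 0.05, the mean of a gene's probes and leaving out each array. Slide as a block with the deposited table, with cyclic loess or without HPD replicate 1 was added after the data were seen. The number of arrays limits the precision.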

Additional observations from a re-analysis of the deposited data

Results flagged for a closer look

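In 1 of the 24 groups of 7 arrays tested, 2 per member probe, an array lay far from the others, and chance alone gives about 1 in 20 groups. It was F11r in the HPD rats, where replicate 1 had a log2 signal of 5.25 and the nearest array 4.47. The gap was 0.591 of the group's range, above the critical value for 7 samples. The diet difference of F11r was -0.60 with this array and -0.75 without it.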

How the results depend on the processing

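Each gene was fitted under 28 settings (27 for Cldn1, which the filter on signal removed), and Cldn2, F11r and Cldn7 were the 3 genes with the same sign in all of them. Over all genes and alternatives, 233 differences kept their direction and 36 reversed, none of the reversed ones being called. Cldn1 reversed with quantile normalization (-0.00041), cyclic loess (-0.059), slide as a block (-0.19), cyclic loess with slide (-0.26) and slide without HPD replicate 1 (-0.25). Cldn3 reversed with quantile (-0.0047), cyclic loess (-0.014) and the deposited table with slide (-0.013). Ocln reversed with normexp (-0.021), slide (-0.0021), the deposited table (-0.033), the same with slide (-0.12) and cyclic loess with slide (-0.021). Cldn15 reversed with normexp (-0.068), the median pixel signal (-0.035), the deposited table (-0.077) and the same with slide (-0.041). Cldn23 reversed with normexp (-0.038), the deposited table (-0.038), the same with slide (-0.056) and slide without HPD replicate 1 (-0.019), and Tjp1 with the deposited table (-0.0016).

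Leaving out each array in turn gave -0.18 to 0.36 for Cldn1, -1.13 to -0.77 for Cldn2, 0.10 to 0.21 for Cldn3, -0.26 to 0.048 for Cldn4, -0.25 to -0.14 for Cldn7, -0.088 to 0.091 for Cldn15, 0.014 to 0.19 for Cldn23, -0.0063 to 0.30 for Ocln, 0.11 to 0.18 for Tjp1 and -0.75 to -0.53 for F11r. It called 0 of the 10 genes throughout, 0 to 1 tight junction gene and 9 to 151 probes, the highest without HPD replicate 1 and the lowest without NPD replicate 4.

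Of 30367 probes, 5142 were called with normexp, 27 with slide as a block and 40 with cyclic loess and slide. With slide and without HPD replicate 1, 1640 were called. The deposited table with slide had 2767 of 26414 rows called. Of the 76 tight junction genes, normexp called 11 (2 members), against 16.9% of all genes. The deposited table with slide called 7 (2 members), against 10.5% of its rows. Slide without HPD replicate 1 called 6 (2 members), against 5.48% of all genes. Replicate numbers were shared between the diets. The labels do not state whether same-numbered rats were matched, and the fit with diet as the only term did not pair them. Same-numbered deviations correlated at -0.0899 to 0.386, 6 of 7 above 0.1, and 1 NPD array matched its own number best. The pair at -0.0899, replicate 4, was the only pair split between the slides, so these correlations cannot tell matching from slide. With the replicate block 8 probes and 0 of the 10 genes were called. The causes were not tested. The median difference over all probes was 0.11, and 0.00067 with cyclic loess, a method that brings the arrays to a common level. Small positive differences did not all follow. With cyclic loess Cldn3 went from 0.16 to -0.014, while Tjp1 went from 0.15 to 0.13 and Cldn15 from 0.02 to 0.06. Dim probes such as Cldn1 are limited by signal over background.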
